A study of Mus musculus with 16 samples.

Results

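The genes described here encode the enzymes and sulfate suppliers that build heparan sulfate and chondroitin sulfate chains. They were taken from a list of 40 genes with known roles in this synthesis, drawn up with earlier results of these data known. Of the 40, 35 had a probe under their symbol in the annotation used here. The probe with the highest mean log2 intensity stood for each gene. The filter on dim probes, which asked for an intensity above the median of the array on at least 3 of 15 arrays, left 28 of them for testing among 9918 genes in all. By role, the 28 were 5 enzymes of the linker region, 9 of heparan sulfate synthesis, 11 of chondroitin sulfate synthesis, 2 makers of the sulfate donor and the sulfatase Sulf1.

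Heparan sulfate and chondroitin sulfate are long sugar chains attached to core proteins on the cell surface and in the extracellular matrix. Both start from the same short linker of xylose, galactose and glucuronic acid, after which one set of enzymes extends the chain as heparan sulfate and another as chondroitin sulfate, and sulfotransferases decorate it. In bone and cartilage these chains bind Wnt, FGF, BMP and hedgehog ligands, and chondroitin sulfate on aggrecan gives cartilage its water-holding matrix.

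RNA came from calvaria, which are flat skull bones, of 16 male mice at postnatal day 7, 4 of each genotype. WT mice were wild type at both genes, R-Het mice were Runx2+/-, A-KO mice were Axin2-/-, and A-KO:R-Het mice were both Axin2-/- and Runx2+/-. Axin2 is a Wnt target gene that dampens the Wnt signal, and Runx2 is a transcription factor needed to form osteoblasts. The array of A-KO replicate 2 carries a label saying that it was damaged, and it was left out, so there were 3 arrays for A-KO and 4 for each other genotype, 1 array per mouse. The strain background and the kind of Axin2 allele are not given in the sources used here.

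The single-colour Illumina arrays lay on 2 chips, each with 2 arrays of every genotype. Array medians of the 15 arrays were 92.9 to 95.5 in the authors' normalized intensity, and precision is limited by how many arrays there were. All 11 osteoblast markers tested lay above the median of the array on all 15 arrays. The Axin2 probe averaged 7.67 on the log2 scale in WT and 7.48 in A-KO arrays (change -0.19, adjusted p = 0.549). Whether the deletion covers that probe's target is not known here, so its level checks no label, and Runx2 itself is not analysed here. The dissected bone is a mixture of cells, and in such bulk RNA fewer cells of a type and less RNA per cell cannot be told apart.

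The finding turned on 1 sulfotransferase gene, Hs3st3a1, and its near neighbour Hs3st3b1 makes an enzyme of the same activity. Both add a sulfate to the 3-O position of glucosamine, one of the last and rarest modifications of heparan sulfate, and in human and mouse their catalytic domains are almost the same. The genes lie on chromosome 11 with 1 protein-coding gene between them. Their start regions are shown so that the pair can be compared, since the probe of Hs3st3a1 differed between genotypes and that of Hs3st3b1 was not above the array median on any array. Probe sequences are not used here, so whether the Hs3st3a1 probe separates the pair was not tested. Each run spans 250 bases before to 50 bases after the annotated transcription start in RefSeq assembly GRCm38.p6, read 5′ to 3′ on the strand of the gene, with the 50 bases from the start onward in capitals.

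The Hs3st3a1 window is chr11:64435082-64435381 on the plus strand, with its sequence on the next line.
Hs3st3a1: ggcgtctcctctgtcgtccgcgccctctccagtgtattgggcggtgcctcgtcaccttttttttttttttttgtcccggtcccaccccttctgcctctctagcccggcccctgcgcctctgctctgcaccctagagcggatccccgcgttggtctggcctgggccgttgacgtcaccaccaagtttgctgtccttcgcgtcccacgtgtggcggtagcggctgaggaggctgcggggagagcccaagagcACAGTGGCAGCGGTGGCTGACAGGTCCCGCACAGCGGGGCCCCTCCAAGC
The Hs3st3b1 window is chr11:63922235-63922534 on the minus strand.
Hs3st3b1: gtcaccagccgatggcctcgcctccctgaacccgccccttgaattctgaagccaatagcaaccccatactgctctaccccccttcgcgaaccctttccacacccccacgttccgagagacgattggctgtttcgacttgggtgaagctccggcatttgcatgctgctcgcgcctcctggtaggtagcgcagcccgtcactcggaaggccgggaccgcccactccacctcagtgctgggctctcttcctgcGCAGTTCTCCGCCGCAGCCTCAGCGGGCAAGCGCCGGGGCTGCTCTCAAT
The windows were searched on both strands for the core RUNX motif TGTGGT and the core TCF/LEF motif CTTTGA, which do not overlap each other, and neither window held either. Of 32851 such mouse windows, 16.8% held the first motif and 16% the second. Of the 26 windows of tested members, 1 held the first and 2 held the second. Axin2 lies on the same chromosome, with 857 protein-coding genes between it and Hs3st3a1.

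Hs3st3a1 was the member that differed most between genotypes. Its log2 intensity was 8.58, 8.11, 8.34 and 8.41 in the WT arrays. It was 9.02, 8.98, 8.99 and 8.85 in R-Het and 8.996, 8.71 and 8.97 in A-KO. In A-KO:R-Het it was 9.18, 9.18, 9.46 and 9.12. Every mutant array was above every WT array, the R-Het and A-KO ranges overlapped each other, and every double-mutant array was above every array of the other genotypes.

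**Figure D1:**
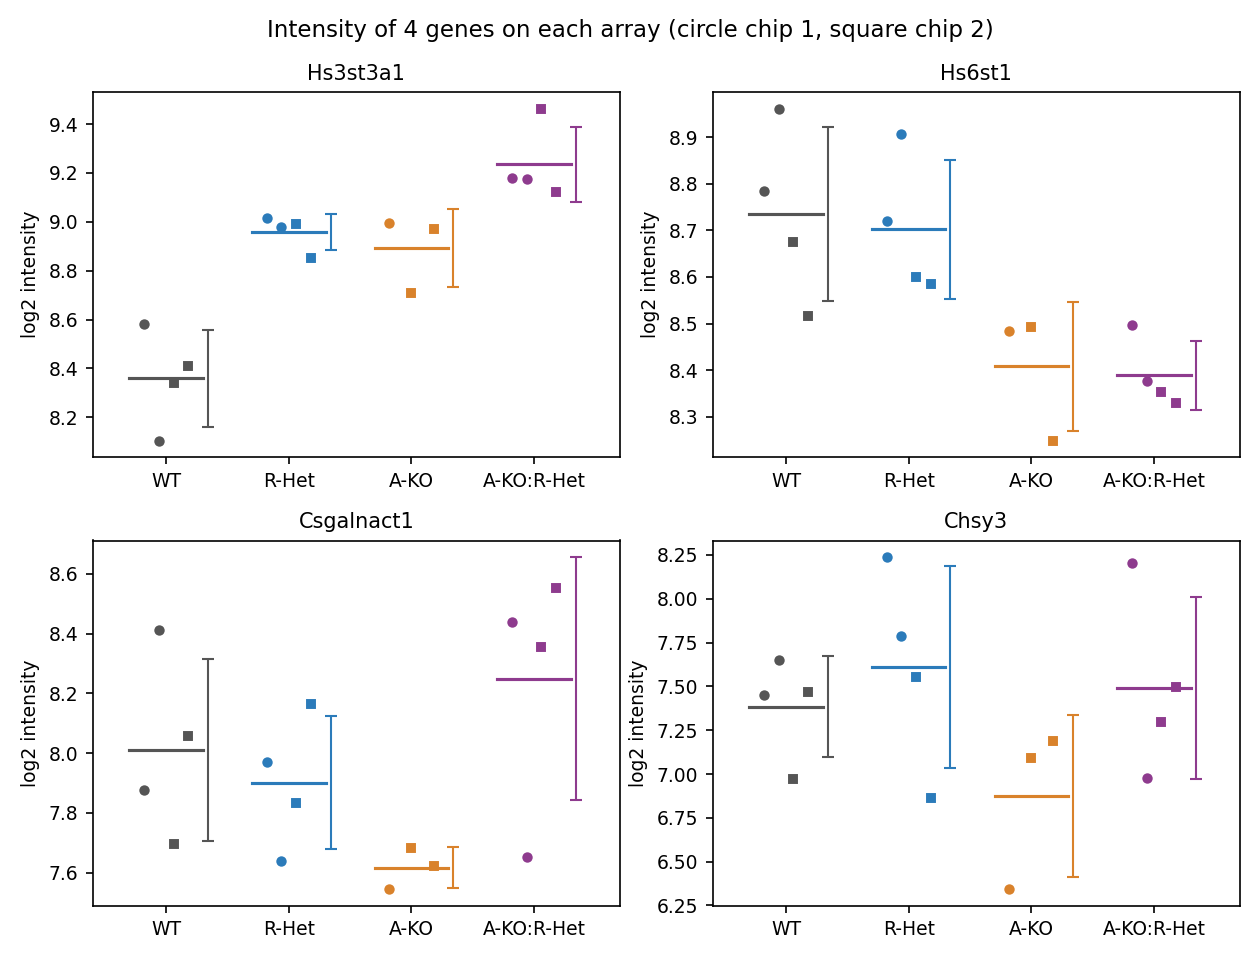
Log2 intensity (vertical axis) of single members on each array, by genotype (horizontal axis), with circles for chip 1 and squares for chip 2. Lines are genotype means and bars are SD over 3 or 4 arrays. Hs3st3a1 runs from 8.11 to 8.58 in WT and from 9.12 to 9.46 in A-KO:R-Het.

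In A-KO:R-Het against WT, Hs3st3a1 rose by 0.88 ± 0.11 (SE) on the log2 scale, or 1.84-fold (95% interval 0.65 to 1.10 on the log2 scale, limma adjusted p = 0.0035). It was place 1 of 9918 genes by p in that comparison. It was the 1 of 28 tested members that passed the adjusted threshold of 0.05, against 1.89% of all genes tested, and it rose in 4 of 4 double-mutant arrays relative to the highest WT array. The change was 0.83 within chip 1 and 0.92 within chip 2.

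The single mutants lay between WT and the double mutant, and neither passed the threshold. The change was 0.60 ± 0.11 in R-Het, 1.52-fold (adjusted p = 0.0655), with 0.65 on chip 1 and 0.55 on chip 2. In A-KO it was 0.53 ± 0.12, 1.45-fold (adjusted p = 0.0563), with 0.65 on chip 1 and 0.47 on chip 2. The chip 1 value of A-KO rests on 1 array, since the damaged array lay on that chip. Over the 15 fits that left out 1 array, the adjusted p ran from 0.0412 (without R-Het replicate 4) to 0.254 (without R-Het replicate 3) for R-Het. For A-KO it ran from 0.0498 (without R-Het replicate 4) to 0.286 (without A-KO replicate 1), and each change passed in 1 of the 15. With the cartilage mean as a covariate the adjusted p was 0.118 for R-Het and 0.148 for A-KO, and with the fibrous tissue mean 0.807 and 0.195.

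Averaged over both Runx2 states, loss of Axin2 went with a rise of 0.40 ± 0.08 in Hs3st3a1, 1.32-fold (adjusted p = 0.0282), the 1 member called there, against 0.645% of all genes. This call was lost when the damaged array was kept (adjusted p = 0.106) and when any of 6 single arrays was left out. Those were A-KO replicates 1 and 4 (adjusted p = 0.112 and 0.0784), R-Het replicates 2 and 3 (0.0545 and 0.0589), WT replicate 3 (0.0592) and A-KO:R-Het replicate 3 (0.0655). Averaged over both Axin2 states, loss of 1 Runx2 copy went with a rise of 0.47 ± 0.08, 1.39-fold (adjusted p = 0.00769), again the 1 member called, against 1.63% of all genes.

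The interaction asks whether the Axin2 effect differs between Runx2 states. For Hs3st3a1 it was -0.26 ± 0.16 (95% interval -0.59 to 0.08, adjusted p = 0.839), so no departure from additive effects was shown. Across all genes the interaction called 0% in limma, with 611 genes at an unadjusted p under 0.05, or 6.16%, and 1 of 28 members. Against A-KO the double mutant was higher by 0.34 ± 0.12 (adjusted p = 0.249), and against R-Het by 0.28 (adjusted p = 0.749). No member was called in either, where 0.555% and 0% of all genes were, the latter with 641 genes at an unadjusted p under 0.05 in limma. These 2 comparisons, like those with WT, share arrays.

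Markers of other tissues also differed between the genotypes. The mean of 14 tested cartilage markers, relative to WT, was 0.99 in A-KO:R-Het, 0.54 in R-Het and -0.46 in A-KO, and 12 of the 14 lay above the array median on all arrays. Their summed intensity ran from 10602 to 24362 in WT, 21005 to 46306 in A-KO:R-Het, 24997 to 28288 in R-Het and 8743 to 12477 in A-KO. On average, cartilage markers were thus above WT in both genotypes that lack a Runx2 copy and below WT in A-KO. Per array, their mean ran from -0.60 to 0.38 in WT, overlapping A-KO (-0.60 to -0.30) and A-KO:R-Het (0.37 to 1.40). In R-Het it ran from 0.42 to 0.67. The mean of 8 fibrous tissue markers ran from -0.14 to 0.12 in WT, 0.31 to 0.59 in A-KO:R-Het, 0.29 to 0.45 in R-Het and 0.09 to 0.16 in A-KO, and all 8 lay above the array median on every array. Their summed intensity was 28188 to 31892 in WT, 36460 to 39330 in A-KO:R-Het, 35874 to 38192 in R-Het and 31245 to 32229 in A-KO. The mean of 17 skeletal muscle markers, relative to WT, was -1.11 in A-KO:R-Het, -1.23 in R-Het and -0.996 in A-KO. Per array it ran from -2.87 to 0.19, -2.82 to 1.52 and -1.93 to 0.08 in the same order. All these ranges overlapped WT, at -1.24 to 1.49. The skeletal muscle mean was a covariate in an alternative fit.

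Neutrophil, B cell and erythroid markers were low on average on both Axin2-/- backgrounds. The mean of 11 neutrophil markers, relative to WT, was -0.93 in A-KO:R-Het, -0.90 in A-KO and -0.15 in R-Het, and 8 of the 11 lay above the array median on all arrays. That of 8 B cell markers was -0.52, -1.01 and -0.13 in the same order, and that of 4 erythroid markers -0.64, -1.23 and 0.02. On all arrays, 0 of these 8 and 2 of these 4 lay above the array median. Erythroid means in A-KO:R-Het ran from -1.55 to 0.39, overlapping WT at -0.29 to 0.41. For 6 macrophage markers the mean was -0.05, -0.11 and -0.08 in the same order. The summed neutrophil intensity ran from 11649 to 21234 in WT, 3361 to 13233 in A-KO:R-Het, 11529 to 14799 in R-Het and 6090 to 10144 in A-KO, so the single-mutant A-KO range lay below that of WT and the double-mutant range overlapped it. The mean of 10 osteoclast markers ran from -0.43 to -0.37 in A-KO:R-Het and -0.40 to -0.21 in R-Het, both below WT at -0.08 to 0.04. In A-KO it overlapped WT. The mean of 7 endothelium markers ran from -0.31 to -0.25 in A-KO:R-Het, below WT at -0.05 to 0.04. In R-Het (-0.41 to 0.13) and A-KO (-0.19 to -0.02) it overlapped WT. The part of these blood cell, macrophage, osteoclast and endothelium markers in the values of Hs3st3a1 and of other members was not tested.

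With the cartilage mean as a covariate the double-mutant change of Hs3st3a1 was 0.95 ± 0.17 (adjusted p = 0.0522), and the averaged Runx2 effect was 0.55 ± 0.16 (adjusted p = 0.244). With the fibrous tissue mean, a covariate chosen after the data were seen, these were 0.83 ± 0.23 (adjusted p = 0.836) and 0.44 (adjusted p = 0.722), and in that fit no gene was called in the double mutant. The estimates moved little and their errors widened. Both tissue means differed between genotypes, and the fibrous tissue mean did not overlap between WT and A-KO:R-Het arrays. In these fits the part of the tissues and that of genotype cannot be told apart, and it was not tested otherwise.

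Hs6st1, which adds sulfate to the 6-O position of glucosamine, was lower on both Axin2-/- backgrounds. It read 8.78, 8.96, 8.68 and 8.52 in WT and 8.72, 8.91, 8.60 and 8.58 in R-Het. It read 8.48, 8.49 and 8.25 in A-KO and 8.50, 8.38, 8.35 and 8.33 in A-KO:R-Het. All 7 Axin2-/- arrays lay below all 8 others, with WT and R-Het overlapping fully.

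The change of Hs6st1 was -0.33 ± 0.11 in A-KO (adjusted p = 0.214), -0.35 ± 0.10 in A-KO:R-Het (adjusted p = 0.111) and -0.03 in R-Het (adjusted p = 0.958). The averaged Axin2 effect was -0.32 ± 0.08 (adjusted p = 0.0711), which did not pass. It passed with the chip as a block (adjusted p = 0.0391), as did the double mutant against WT (adjusted p = 0.0499), and over the fits without 1 array its adjusted p ran from 0.0393 to 0.166. With the fibrous tissue covariate the double-mutant change was -0.07 ± 0.20 (adjusted p = 0.98), and the averaged Axin2 effect was -0.26 ± 0.08 (adjusted p = 0.293). With the cartilage covariate these were -0.43 ± 0.17 (adjusted p = 0.333) and -0.32 ± 0.08 (adjusted p = 0.0634). Both tissue means differed between genotypes, so in these fits the part of the tissues and that of genotype cannot be told apart. The neutrophil and B cell markers given above were also low on both Axin2-/- backgrounds, and their part in the lower Hs6st1 was not tested. A second Hs6st1 probe, below the filter, differed from WT by -0.07 in A-KO:R-Het and -0.08 in A-KO.

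**Figure D2:**
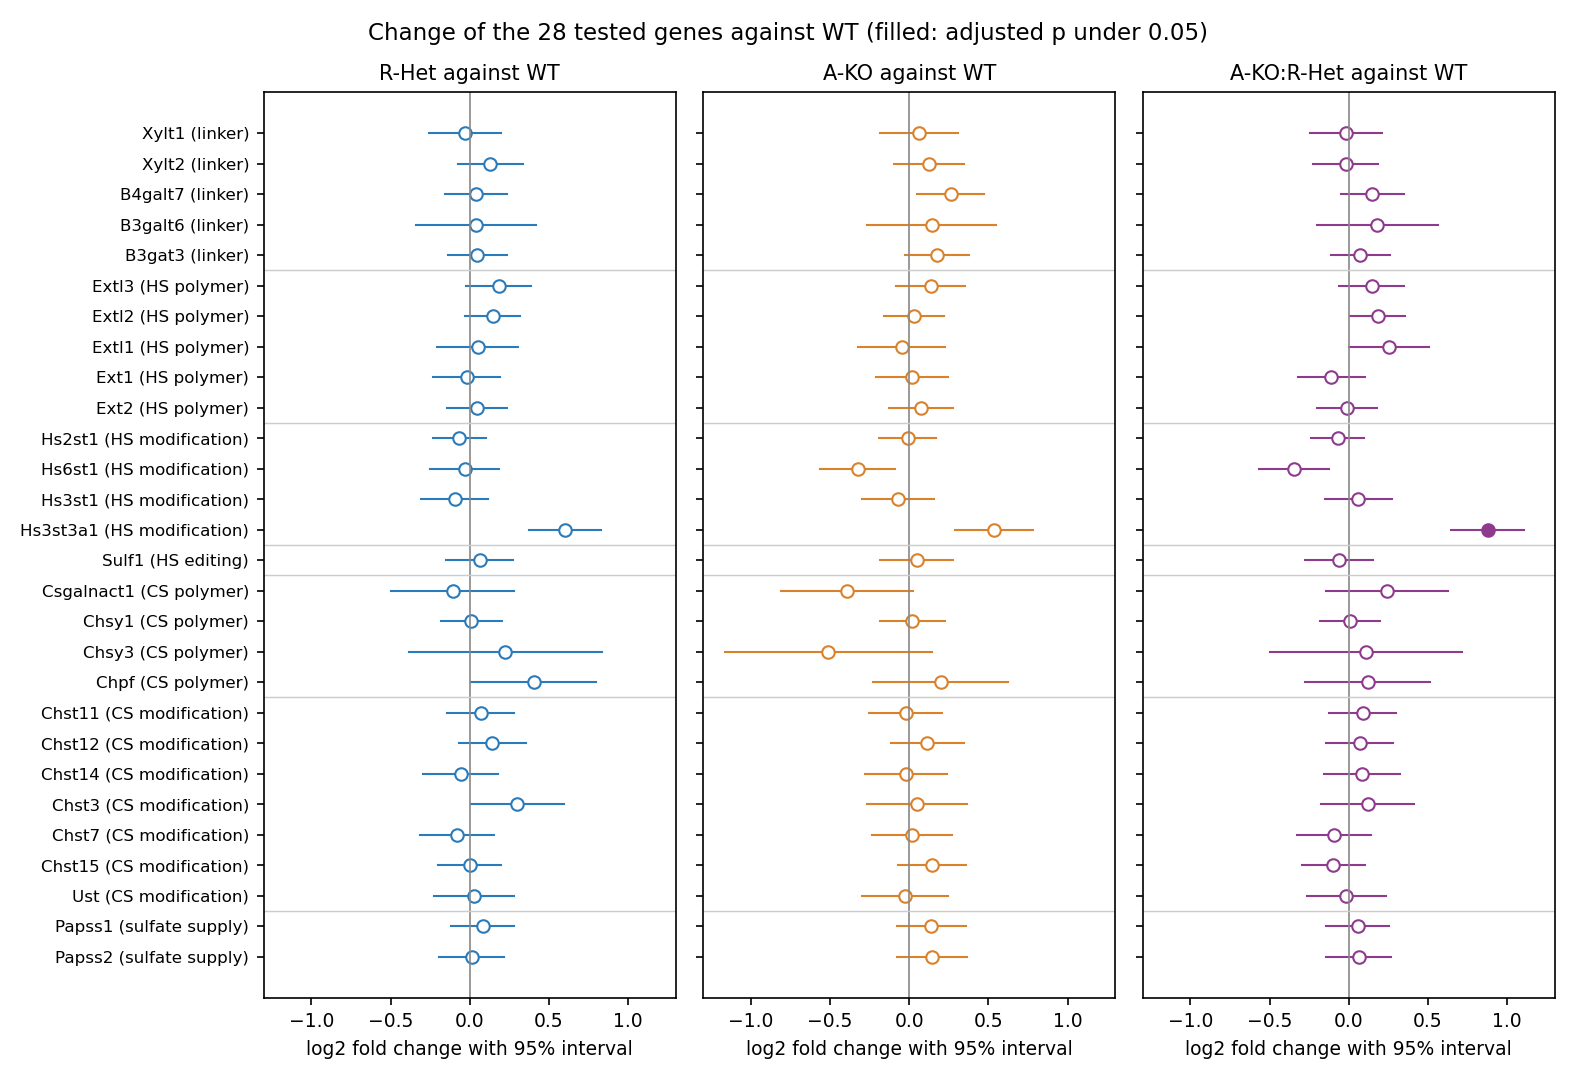
Log2 change against WT (horizontal axis) of the 28 tested members (rows, by role) in each mutant genotype, with 95% intervals from limma. Hs3st3a1 reaches 0.88 in A-KO:R-Het, and most other members lie near 0.

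The linker enzymes begin both kinds of chain. Xylt1 and Xylt2 attach xylose to the core protein, B4galt7 and B3galt6 add the galactoses, and B3gat3 adds the glucuronic acid. All 5 were higher in A-KO than in WT, with a median of 0.14, against 0.01 over all genes, but none passed the test. Without WT replicate 3, where B3galt6 stood apart at 7.864, the change of B3galt6 turned from 0.14 to -0.03, so 4 of 5 were higher, with a median of 0.11. B4galt7 read 7.45, 7.39, 7.14 and 7.35 in WT and 7.59, 7.74 and 7.46 in A-KO (0.26 ± 0.10, adjusted p = 0.282). These groups do not overlap, as was so for 13.9% of all genes in this comparison. In A-KO:R-Het 3 of the 5 were higher than WT, with a median of 0.07, and in R-Het 4 of 5, with a median of 0.04. The B3gat3 probe used gave 0.17 in A-KO, 0.07 in A-KO:R-Het and 0.05 in R-Het. A second B3gat3 probe that passed the filter gave 0.07, -0.10 and -0.05. The counts in A-KO:R-Het and R-Het thus depend on the probe. Xylt1 was close to the array median throughout and passed the filter on 8 of 15 arrays.

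Ext1 and Ext2 form the polymerase of heparan sulfate, Extl3 starts the chain, and Extl1 and Extl2 are related transferases. The polymerase genes barely differed from WT: Ext1 by 0.02 in A-KO, -0.02 in R-Het and -0.11 in A-KO:R-Het, and Ext2 by 0.07, 0.05 and -0.01. Extl2 read 10.10, 10.28, 9.92 and 10.19 in WT and 10.24, 10.27, 10.36 and 10.33 in A-KO:R-Het, overlapping groups (0.18 ± 0.08, adjusted p = 0.343). Extl3 was higher by 0.13 in A-KO, 0.18 in R-Het and 0.14 in A-KO:R-Het, with none called. Another Extl3 probe that passed the filter gave 0.12, 0.05 and 0.11. Extl1 passed the filter on 6 arrays, 3 of A-KO:R-Het, 2 of R-Het, 1 of WT and 0 of A-KO, and its change of 0.26 in the double mutant (adjusted p = 0.356) is that of a probe near the array median.

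Among the other heparan sulfate modifiers, Hs2st1, which adds sulfate to the 2-O position of the uronic acid, had the smallest spread within a genotype of any tested member, at 0.09. It differed from WT by -0.07 in A-KO:R-Het, -0.07 in R-Het and -0.01 in A-KO. Hs3st1, the 3-O-sulfotransferase known for the anticoagulant form of heparan sulfate, differed by 0.06, -0.09 and -0.07 in the same order. Sulf1, which removes 6-O-sulfate outside the cell, differed by -0.06, 0.06 and 0.05. No change of these passed the test in any comparison with WT.

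Chain synthesis of chondroitin sulfate starts with Csgalnact1 and is carried on by Chsy1, Chsy3 and their partner Chpf. Csgalnact1 read 7.88, 8.41, 7.70 and 8.06 in WT, 7.54, 7.68 and 7.62 in A-KO, and 8.44, 7.65, 8.35 and 8.55 in A-KO:R-Het. In R-Het it read 7.97, 7.64, 7.83 and 8.17. All A-KO arrays were below all WT arrays, while A-KO:R-Het overlapped A-KO through its replicate 2. Arrays of A-KO and WT did not overlap for 13.9% of all genes.

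The change of Csgalnact1 was -0.39 ± 0.20 in A-KO (adjusted p = 0.418), and A-KO:R-Het exceeded A-KO by 0.63 ± 0.20, 1.55-fold (adjusted p = 0.202). That difference was called when A-KO:R-Het replicate 2 was left out (0.83, adjusted p = 0.0293), and over the other fits without 1 array its adjusted p reached 0.475. The interaction of 0.74 ± 0.27 was the one among members with an unadjusted p under 0.05 (limma adjusted p = 0.772). Relative to WT the cartilage mean was also low in A-KO, at -0.30, -0.49 and -0.60. It was high in A-KO:R-Het, at 1.32, 0.37, 0.89 and 1.40, where replicate 2 was again lowest. The WT arrays ran from -0.60 to 0.38 and overlapped both groups. Within WT and within A-KO:R-Het the order of the arrays was the same for Csgalnact1 and the cartilage mean. Within A-KO and within R-Het the order was not the same. In R-Het the cartilage mean was 0.54 and the change of Csgalnact1 was -0.11. With the cartilage mean as a covariate the difference between the double mutant and A-KO was -0.38 ± 0.25 and the interaction 0.10. The cartilage mean itself differed between these genotypes, so in this fit its part and that of genotype cannot be told apart. The part of cartilage in the values of Csgalnact1 was not tested otherwise.

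Chsy1 barely differed, with changes against WT of 0.02 in A-KO, 0.01 in R-Het and 0.01 in A-KO:R-Het. Chsy3 was the most variable tested member, with an SD within a genotype of 0.47 and a range of 1.89 over the arrays. It read 7.45, 7.65, 6.97 and 7.47 in WT and 6.34, 7.09 and 7.19 in A-KO (-0.51 ± 0.31, adjusted p = 0.522). The groups overlapped, and the R-Het arrays alone spanned 6.86 to 8.24.

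Chpf read 8.82, 8.62, 8.64 and 8.82 in WT and 9.33, 9.32, 9.09 and 8.78 in R-Het (0.40 ± 0.19, adjusted p = 0.528). The fourth R-Het array lay within the WT range, and 1 of 3 A-KO arrays, at 9.59, was the highest of all. The chondroitin 6-O-sulfotransferase Chst3 read 7.14, 7.07, 7.44 and 6.998 in WT and 7.12, 7.78, 7.69 and 7.25 in R-Het (0.30 ± 0.14, adjusted p = 0.528). Its second probe gave 0.04 for the same comparison, so the probes disagree.

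Chst11 and Chst12 sulfate the 4-O position of chondroitin, Chst14 that of dermatan, Chst7 the 6-O position, Chst15 an already 4-O-sulfated sugar, and Ust the uronic acid. Against WT, changes of these 6 lay between -0.10 and 0.14 in every mutant genotype, and none passed. Chst15 was lower in A-KO:R-Het than in A-KO by 0.24 (-0.24 ± 0.10, adjusted p = 0.397). Papss1 and Papss2, which make the sulfate donor PAPS, were both 0.14 above WT in A-KO, and 0.06 and 0.06 in A-KO:R-Het, with none called.

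**Figure D3:**
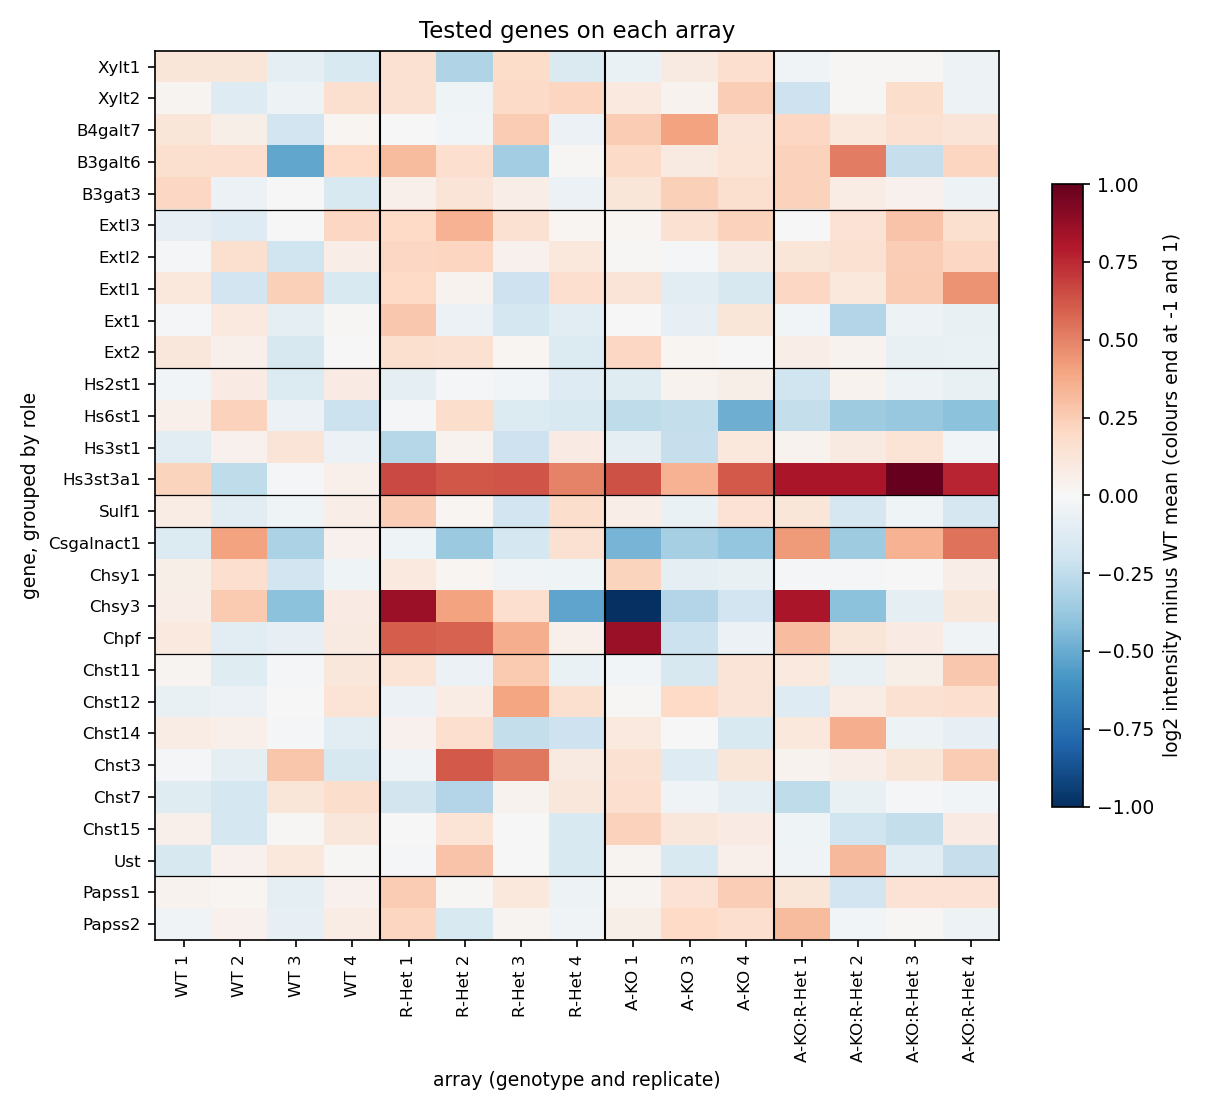
Log2 intensity minus the WT mean for the 28 tested members (rows, by role) on 15 arrays (columns, by genotype). Colours end at -1 and 1, and 1 array of Chsy3 in A-KO and 1 of Hs3st3a1 in A-KO:R-Het lie beyond them. The Hs3st3a1 row is above the WT mean in every mutant array.

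Heparan and chondroitin genes were compared as groups. In A-KO the median change was 0.02 over 9 heparan members and 0.02 over 11 chondroitin members, in R-Het 0.05 and 0.03, and in A-KO:R-Het 0.06 and 0.08, against 0.01, 0.00 and 0.01 over all genes. Of the heparan members 1 of 9 was called in A-KO:R-Het, and of the chondroitin members 0 of 11, against 1.89% of all genes. At an unadjusted p under 0.05 in limma there were 4 and 0 in A-KO:R-Het, against 13.7% of all genes. In A-KO there were 2 and 0, against 12.7%, and in R-Het 1 and 2, against 9.24%. The difference between the groups was not tested. Apart from Hs3st3a1 no member of either group was called in any of 8 comparisons.

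Averaged per array, the heparan members stood 0.11 ± 0.04 above WT in A-KO:R-Het (SD, n = 4), 0.09 ± 0.08 in R-Het (n = 4) and 0.04 ± 0.04 in A-KO (n = 3). All A-KO:R-Het arrays, at 0.08 to 0.16, were above all WT arrays, at -0.03 to 0.03. This separation was not seen without Hs3st3a1. In that mean, chosen after the data were seen, the other 8 heparan members stood at 0.01 ± 0.03 in A-KO:R-Het, 0.03 ± 0.08 in R-Het and -0.03 ± 0.03 in A-KO. The A-KO:R-Het arrays, at -0.01 to 0.05, then overlapped the WT arrays, at -0.04 to 0.04. For the chondroitin members the means were 0.06 ± 0.06 in A-KO:R-Het, 0.08 ± 0.09 in R-Het and -0.04 ± 0.06 in A-KO, and the genotypes overlapped. No test was made of these means.

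**Figure D4:**
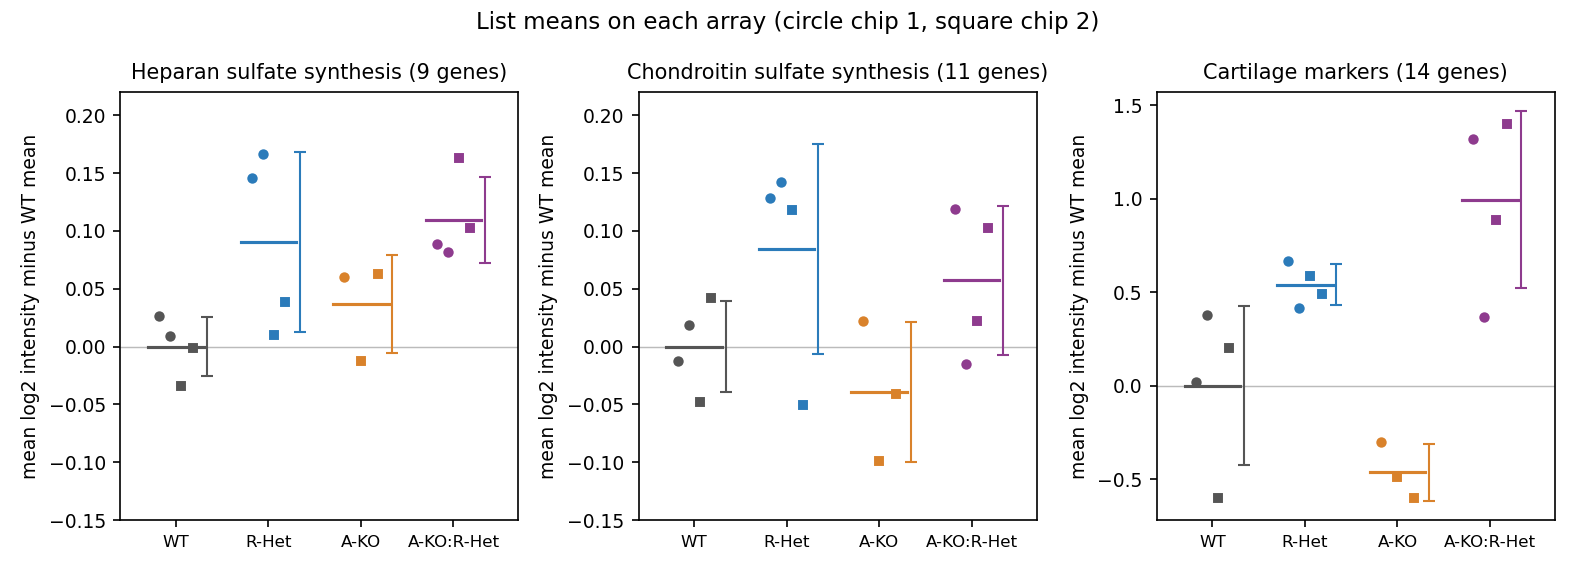
Mean log2 intensity minus the WT mean (vertical axes) on each array for 9 heparan members, 11 chondroitin members and 14 cartilage markers, by genotype, with circles for chip 1 and squares for chip 2. Lines are means and bars SD over 3 or 4 arrays. The cartilage axis covers a wider range than the other axes, reaching 0.99 on average in A-KO:R-Het against 0.11 for the heparan members with Hs3st3a1 and 0.01 without it.

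Over all members, 0 of 28 passed the threshold in A-KO against WT, where 0.313% of all genes did, and 0 of 28 in R-Het against WT, where 0.0504% did. At an unadjusted p under 0.05 there were 3 members in A-KO (10.7%, against 12.7% of all genes), 3 in R-Het (10.7%, against 9.24%) and 4 in A-KO:R-Het (14.3%, against 13.7%). For A-KO:R-Het against A-KO the count was 4 (against 10.8%), against R-Het 2 (against 6.46%), for the averaged Axin2 effect 3 (against 13.6%) and for the averaged Runx2 effect 2 (against 12.6%). These shares lie near those of all genes.

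Groups of arrays did not overlap for 4 members in A-KO (14.3%, against 13.9% of all genes), namely B4galt7, Hs6st1, Hs3st3a1 and Csgalnact1. They did not overlap for 1 in R-Het (3.57%, against 5.04%) and 2 in A-KO:R-Het (7.14%, against 8.56%). In A-KO:R-Het against A-KO there were 2 such members (against 11.4%) and against R-Het 2 (against 2.77%). Members with a change above 0 numbered 19 of 28 in A-KO (against 51.7% of all genes), 19 in R-Het (against 51.3%) and 18 in A-KO:R-Het (against 52.7%). In the other comparisons the numbers were 12 against A-KO (49.8% of all genes), 12 against R-Het (52%), 17 for Axin2 (53.2%), 14 for Runx2 (49.9%) and 10 for the interaction (50.8%).

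The intervals bound what could have been missed. The 95% interval lay within 0.5 on either side of 0, a 1.41-fold difference, for 22 of 28 members in A-KO, 24 in R-Het and 21 in A-KO:R-Het. The remaining members, with Hs3st3a1 among them in all mutant genotypes, had intervals that reached beyond that size.

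Of the other 12 listed genes, 7 were on the array and above the array median on none of the 15 arrays. They were Ndst3, an N-deacetylase and N-sulfotransferase, Glce, the C5-epimerase of heparan sulfate, Hs6st2, Hs3st3b1, Csgalnact2, Dse, the epimerase of dermatan sulfate, and the sulfate transporter Slc26a2. Their log2 intensities lay below the array medians of 6.54 to 6.58, so these probes give only an upper bound. Ndst1, Ndst2, Sulf2, Chpf2 and Chst13 had no probe under their symbol in the annotation used here and are not analysed.

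Genes around the pathway were taken from fixed lists. Over all genes, limma called 0.313% in A-KO, 0.0504% in R-Het and 1.89% in A-KO:R-Het against WT. In the averaged Runx2 effect it called 1.63%. At an unadjusted p under 0.05 in limma the shares of all genes against WT were 12.7%, 9.24% and 13.7% in that order. Of 13 tested heparan sulfate core proteins, such as syndecans and glypicans, 0 rose and 0 fell in any comparison with WT in limma, with 2 in A-KO, 1 in R-Het and 1 in the double mutant at an unadjusted p under 0.05. Of 9 chondroitin and dermatan sulfate core proteins, Epyc, the dermatan sulfate core protein epiphycan of cartilage, rose in A-KO:R-Het by 1.32 ± 0.19, 2.50-fold (adjusted p = 0.00597). Srgn, the core protein serglycin of blood cell granules, fell in A-KO (-0.58 ± 0.12, adjusted p = 0.0491). In the same comparison 6 of 8 B cell markers were called lower. Of 11 neutrophil, 7 mast cell and 4 erythroid markers 0 were called in limma, while 9, 4 and 3 had an unadjusted p under 0.05, and all 11 neutrophil markers and all 4 erythroid markers were below WT. Their part in the fall of Srgn was not tested. Acan, the aggrecan gene, rose in the averaged Runx2 effect by 0.89 ± 0.20 (adjusted p = 0.0365). Cartilage markers were called higher there in 11 of 14 and in the double mutant in 5 of 14, and their part in the rises of Acan and Epyc was not tested.

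Among 10 genes that supply sugar nucleotides and sulfate donor, 1 was called in A-KO:R-Het, where 1.89% of all genes were. Gfpt2, which makes glucosamine phosphate at the entry of hexosamine synthesis, rose by 0.49 ± 0.11 (adjusted p = 0.0265). Of 11 lysosomal enzymes that break the chains down, 2 fell in A-KO:R-Het, Hexa, a subunit of beta-hexosaminidase (-0.51 ± 0.10, adjusted p = 0.02), and Arsb, the 4-sulfatase (-0.77 ± 0.18, adjusted p = 0.0421). Osteoclast markers were also lower there, with a mean of -0.40 and 4 of 10 called lower, and their part in these falls was not tested. Of 5 further chain enzymes and 2 hyaluronan synthases, 0 were called in any comparison with WT in limma. A hyaluronan synthase was the 1 of them with an unadjusted p under 0.05, in the double mutant, where 13.7% of all genes had one.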

How the data were processed

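Gene expression was measured on single-colour Illumina bead arrays from TRIzol-extracted RNA, 200 ng per array, per the labels' protocols. The values are the authors' deposited normalized intensity on a linear scale, with background correction and normalization not given in the sources used here. A table of scanner signals was not used, because none of its 32 columns, named by number, could be matched to a sample label.

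Log2 of the intensity was taken, and named probes above the array median on at least 3 of 15 arrays were kept (13381). The probe with the highest mean stood for each of 9918 genes. Symbols came from the platform annotation, with 23962 of 23978 named probes matched to RefSeq. A model with 1 mean per genotype was fitted in limma 3.58.1 (R 4.3.3), with p-values adjusted over all genes by the Benjamini-Hochberg method and a threshold of 0.05. The fit planned on log2 scanner signals was replaced by this one. It was tested on simulated data. Replicates were numbered in record order and are separate mice. Members and gene lists were chosen with earlier results of these data known. Full statistics were given for members called in any comparison and for the 3 with the smallest p in each comparison with WT. Members described beyond these, such as Csgalnact1 and Chsy3, were picked after their values were seen. Alternatives were the chip as a block or alone, the damaged array, other filters, quantile normalization, 16 added before log2, mean of probes, tissue marker means as covariates and leaving out each array.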

Additional observations from a re-analysis of the deposited data

Results flagged for a closer look

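In 7 of 84 groups of 4 arrays 1 array stood apart from the other 3 by Dixon's criterion, and chance alone gives about 1 in 20 groups. B4galt7 read 7.591 in R-Het replicate 3, against 7.275 to 7.327 in the others. B3galt6 read 7.864 in WT replicate 3, against 8.544 to 8.584. Hs3st3a1 read 9.463 in A-KO:R-Het replicate 3, against 9.121 to 9.179, and its call against WT held without that array. Chsy1 read 11.3 in A-KO:R-Het replicate 4, against 11.22 to 11.23. Papss1 read 10.97 in WT replicate 3, against 11.09 to 11.11, and 10.88 in A-KO:R-Het replicate 2, against 11.19 to 11.21. Papss2 read 7.319 in A-KO:R-Het replicate 1, against 6.954 to 7.011.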

How the results depend on the processing

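The rise of Hs3st3a1 in A-KO:R-Het against WT kept its direction under every alternative run, and its call in all 15 fits that left out 1 array. The number of members called there was 2 with the chip as a block and 0 within chip 1, within chip 2, with the cartilage covariate and with the fibrous tissue covariate, which was added after seeing the data. For the averaged Axin2 effect it was 2 with the chip block and 0 within either chip, with the damaged array and with the fibrous covariate. For the averaged Runx2 effect it was 0 within either chip and with either tissue covariate. In R-Het it was 1 with 16 added before log2. Leaving out 1 array moved the number called from 0 to 1 in A-KO, in R-Het and in A-KO:R-Het against A-KO, and from 1 to between 0 and 2 for averaged Axin2.

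The median change of the heparan members in A-KO was -0.038 on chip 1, 0.073 on chip 2 and 0.10 with the cartilage covariate, and that of the chondroitin members 0.088 on chip 1 and -0.066 on chip 2. In R-Het the heparan median was -0.016 on chip 2 and 0.10 with the fibrous covariate, where the chondroitin median was -0.073. In A-KO:R-Het against WT the heparan median was 0.11 with the muscle covariate and 0.13 with the fibrous one, and the chondroitin median -0.039 with cartilage and -0.086 with fibrous tissue. Against A-KO the heparan median was 0.081 with the damaged array, -0.042 with cartilage and 0.12 with fibrous tissue, and the chondroitin median 0.11 on chip 2 and -0.10 with cartilage. Against R-Het chip 1 gave a heparan median of -0.074 and chip 2 one of 0.12. The averaged Axin2 heparan median was -0.039 on chip 1. With the fibrous covariate the averaged Runx2 medians were 0.12 for heparan and -0.075 for chondroitin. The interaction gave heparan medians of -0.13 on chip 1, -0.069 with no filter, -0.052 with the filter on means and -0.094 with cartilage, and chondroitin medians of -0.11 on chip 1 and -0.094 with cartilage. Leaving out 1 array gave -0.061 to 0.049 for chondroitin in A-KO, -0.0063 to 0.084 for heparan in R-Het, -0.016 to 0.10 for chondroitin in A-KO:R-Het against A-KO, and -0.063 to 0.032 for the heparan interaction.

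Over all genes, 187 were called in A-KO:R-Het against WT, and 93 with the damaged array, 4 with the cartilage covariate, 1 on chip 2 and 0 on chip 1 or with the fibrous covariate. In A-KO 31 became 20 with 16 added, 15 with cartilage, 8 with fibrous tissue and 0 with the damaged array or within a chip. In R-Het 5 became 9 with the chip block, 8 with 16 added, 2 with the damaged array, 1 with muscle and 0 with cartilage, fibrous tissue or within a chip. Within a chip each group holds at most 2 arrays. The cause of the other shifts was not tested. No paired analysis was possible because the labels give no replicate numbers. The main fit held no chip term, and the chip was a block only in an alternative fit.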
